A study of Mus musculus with 12 samples.

Results

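The genes described here are the 7 inhibitors of cyclin-dependent kinases (CDKs) and the 3 D-type cyclins of the mouse, 10 of the 54146 genes in the deposited table, taken by gene symbol, with no measured value in the rule. They are the Cip/Kip inhibitors Cdkn1a, Cdkn1b and Cdkn1c, which encode p21, p27 and p57, the Ink4 inhibitors Cdkn2a, Cdkn2b, Cdkn2c and Cdkn2d, which encode p16, p15, p18 and p19, and the cyclins Ccnd1, Ccnd2 and Ccnd3. The RNA came from D2A1, a line of mouse mammary carcinoma, whose cells were injected into the tail vein and later sorted out of the lungs, giving 12 libraries. The cells carried a doxycycline-inducible histone fused to green fluorescent protein (H2B-GFP) and a membrane dye, CellVue Claret (CVC), which thins out as cells divide. Dormant cells were those that kept the dye (GFP+CVCPos) and growing cells those that had lost it (GFP+CVCNeg), each collected as aliquots of 50 cells. Cells that have divided a few times may still keep the dye. Hosts were either WT or Tgfbr2 KO, the latter lacking the type II receptor for transforming growth factor beta in myeloid cells through a Cre recombinase driven by the Lysozyme 2 promoter, so the deletion was in the host and not in the tumor line. The name WT is that of the labels, and the study also calls its control hosts flox controls, mice with floxed Tgfbr2. Dormant and growing cells from both hosts made 4 groups of 3 libraries, named by state and host (dormant WT, growing WT, dormant KO, growing KO). By the methods, the animals of the study were females of 6 to 8 weeks. The study describes the libraries of a group as biological replicates with as many mice as libraries, although the labels do not tie a library to a mouse. The p-values measure the spread between libraries, pooled over the 4 groups.

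D-type cyclins carry signals from outside the cell to the cell cycle. Each binds CDK4 or CDK6, and the active kinase phosphorylates the retinoblastoma protein, which releases E2F transcription factors and lets the cell leave G1 phase. Ink4 proteins bind CDK4 and CDK6 and keep the D-type cyclins off them, whereas Cip/Kip proteins bind complexes of cyclins with their kinases and chiefly block CDK2, and p21 is a classical target of p53. The comparisons below ask how these opposing genes stood in tumor cells that had kept or lost the dye in the lung, and whether that depended on Tgfbr2 in the myeloid cells of the host.

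All values are TPM, a relative abundance of transcripts that is scaled to gene length, so levels may be compared between genes. TPM values hold no record of read depth, and the depth behind each value is unknown. The 12 libraries had 11325 to 15315 genes above 0, with no identical pair within a group. Dormant WT replicate 2 was the lowest, with 4710 of the 13002 tested genes at 0 against 1141 to 4107 in the other libraries, and pairs of dormant WT libraries correlated least (r 0.666 to 0.715 over the tested genes, against 0.866 to 0.952 in the other groups). Krt18, the leading marker of the carcinoma list, was present in every library at 131 to 519 TPM. Krt8 was at 52.1 to 106 TPM in dormant KO and 153 to 381 in the other libraries, and Krt19 at 252 to 418 TPM in dormant KO and 0 to 14.2 in the others. Krt5, Krt14 and Cldn7 were at 0 in the 9 other libraries, and in dormant KO Krt5 was at 0 in replicate 2 while the rest were above 0. Dormant KO libraries also stood apart in other cell types. Spp1, the most abundant gene in the other 3 groups at 28980 to 39951 TPM, lay between 1236 and 1509 TPM there. The 8 markers of alveolar type 2 cells summed to 40100 to 42400 TPM in dormant KO, with 7 of 8 at 1 TPM or more in each library, against 49.0 to 141 TPM in dormant WT, 53.4 to 97.3 in growing WT and 457 to 465 in growing KO, and the lists for alveolar type 1, club and ciliated, endothelial, fibroblast, mesothelial, neutrophil, T and NK, B and erythroid cells were likewise highest there. Macrophage markers summed to 465 to 709 TPM in dormant WT and 506 to 667 in dormant KO, against 11.2 to 19.1 in growing WT and 59.3 to 79.9 in growing KO. The part of these other transcripts in any result on dormant KO libraries was not tested. In such bulk libraries, fewer cells that use a gene and less RNA of it per cell cannot be told apart. All WT libraries were library batch 1 and all KO libraries library batch 2, so host and batch cannot be told apart, while dormant and growing libraries of a host shared a batch.

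In the mouse genome (GRCm38, GENCODE M21 annotation) the inhibitors and cyclins are spread over 5 chromosomes. Cdkn2a (chr4:89274471-89294653) and Cdkn2b (chr4:89306299-89311039) are neighbors on the minus strand with 11645 bases between them, and Cdkn2c lies further along the same chromosome (chr4:109660876-109667189, minus strand). Cdkn2d is at chr9:21288410-21291407 on the minus strand. Of the Cip/Kip genes, Cdkn1a is at chr17:29090976-29100727 and Cdkn1b at chr6:134920401-134925513, both on the plus strand, and Cdkn1c at chr7:143458339-143461050 on the minus strand. Ccnd1 is at chr7:144929931-144939925 and Ccnd2 at chr6:127125162-127152193, both on the minus strand, and Ccnd3 at chr17:47505051-47599691 on the plus strand. Ccnd1, Ccnd2, Ccnd3, Cdkn1a and Cdkn1c overlap annotated genes on the opposite strand, and the use of strand in the counting was not stated, so reads of such partners could not be separated with certainty. The 2 coding transcripts of Cdkn2a, which encode p16Ink4a and p19Arf from different reading frames, were summed in 1 value.

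Promoters, from 250 bases before to 50 after the start site, were read from RefSeq (GRCm38.p6) for 7 of the 10 genes, 11 promoters in all. Printed here are those of the Ink4 genes Cdkn2b, Cdkn2c and Cdkn2d, which each had a called difference, and 1 of the 2 promoters of Cdkn1a, the most abundant gene of the set. Capitals mark matches, on either strand, to any of the searched letters: the GC box GGGCGG, the Krüppel-like factor (KLF) type box CCCCACCC, the E2F-type site TTTNNCGC, the TATA box TATAAA, the cyclic AMP response element TGACGTCA and the E-box CACGTG. None of the marked matches overlapped another in these promoters. Each sequence runs 5′ to 3′ along the strand of its gene.
Cdkn2b, chr4:89310983-89311282, minus strand: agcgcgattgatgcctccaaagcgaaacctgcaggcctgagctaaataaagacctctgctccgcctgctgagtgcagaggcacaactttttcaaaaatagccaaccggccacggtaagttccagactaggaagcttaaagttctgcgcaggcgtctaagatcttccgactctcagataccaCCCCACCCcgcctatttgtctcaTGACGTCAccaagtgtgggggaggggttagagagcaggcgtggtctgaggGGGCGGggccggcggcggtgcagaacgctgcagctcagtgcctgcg
Cdkn2c, chr4:109666707-109667006, minus strand: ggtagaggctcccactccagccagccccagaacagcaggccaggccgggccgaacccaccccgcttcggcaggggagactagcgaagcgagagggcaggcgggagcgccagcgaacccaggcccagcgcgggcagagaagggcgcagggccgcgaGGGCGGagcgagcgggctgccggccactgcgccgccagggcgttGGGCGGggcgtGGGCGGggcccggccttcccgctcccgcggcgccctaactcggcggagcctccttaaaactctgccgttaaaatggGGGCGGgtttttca
Cdkn2d, chr9:21291160-21291459, minus strand: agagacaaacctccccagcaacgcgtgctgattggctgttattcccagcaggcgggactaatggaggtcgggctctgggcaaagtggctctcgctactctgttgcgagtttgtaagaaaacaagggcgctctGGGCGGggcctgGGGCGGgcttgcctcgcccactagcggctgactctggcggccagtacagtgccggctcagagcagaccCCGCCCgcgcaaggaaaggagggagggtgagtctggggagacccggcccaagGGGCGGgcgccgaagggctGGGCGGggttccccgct
Cdkn1a, chr17:29090729-29091028, plus strand: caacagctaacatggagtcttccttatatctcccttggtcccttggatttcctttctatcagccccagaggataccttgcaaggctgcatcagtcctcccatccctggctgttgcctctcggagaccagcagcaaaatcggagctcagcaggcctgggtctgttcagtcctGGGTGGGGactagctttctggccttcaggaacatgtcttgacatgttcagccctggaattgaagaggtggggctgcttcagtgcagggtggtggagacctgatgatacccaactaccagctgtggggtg

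The GC box was present in 9 of the 11 promoters and in 35.7% of all 32851 RefSeq promoters of this length. The 11 were 44.0 to 77.0% G and C, and only the second promoter of Cdkn2c lay below the median of all promoters, 52.7%. The part of base composition in the GC box count was not tested. Cdkn2d carried it 5 times and the Cdkn2c promoter shown 4 times. The KLF-type box was in 2 of the 11, those of Cdkn1a and Cdkn2b shown above, against 9.99% of all promoters. The other promoter of Cdkn1a, not shown, held 2 GC boxes and no KLF-type box. The cyclic AMP response element was in that of Cdkn2b alone, against 1.79% of all, and the E-box only in the second promoter of Cdkn2c, not shown, against 7.15%. The E2F-type site was found in both promoters of Cdkn2a, which are not shown, against 5.17% of all, and the TATA box in none of the 11, against 13.6%. These matches are descriptions of letters and not of bound sites.

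Each gene was compared between groups with limma on log2(TPM + 1), fitted over all 13002 genes with at least 1 TPM in at least 3 libraries, and a gene was called if its difference was at least 1 in size with a p, adjusted by Benjamini-Hochberg, of at most 0.05. The fit used 1 spread per gene for all groups, although dormant WT libraries correlated least with each other. A p or SE is therefore not the spread of only the groups compared. All 10 genes passed that filter, Cdkn1c only through the dormant KO libraries. Transcripts of Ccnd1, Cdkn2b and Cdkn2c were called lower in dormant KO than in dormant WT libraries, and those of Ccnd1 and Cdkn2d lower than in growing KO libraries. Only the call of Ccnd1 against dormant WT was kept in every setting and every omission of a library. Of the 10 genes, 3 were called lower and 0 higher when dormant KO was set against dormant WT, a comparison in which 22.3% of all tested genes were called (9.39% lower, 12.9% higher), and 4 had an unadjusted p under 0.05, as did 35.3% of all genes. In dormant KO against growing KO 2 were called lower and 0 higher, with 17.8% of all genes called (9.48% lower, 8.31% higher), and 4 had an unadjusted p under 0.05, as did 30.8% of all genes. The 2 comparisons share the dormant KO libraries. None was called by limma in dormant WT against growing WT, where 7.51% of all genes were called (5.67% lower, 1.85% higher) and 1 of the 10 had an unadjusted p under 0.05 (23.9% of all genes). None was called in growing KO against growing WT either, where 0.977% of all genes were called (0.261% lower, 0.715% higher) and 0 of the 10 had an unadjusted p under 0.05 (7.53% of all genes). The median difference of the 10 genes was -0.83 in dormant KO against dormant WT, where that of all tested genes was 0.17, and -0.77 in dormant KO against growing KO, where that of all genes was -0.32. It was 0.40 in dormant WT against growing WT and 0.08 in growing KO against growing WT, beside -0.35 and 0.02 over all genes.

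**Figure D1:**
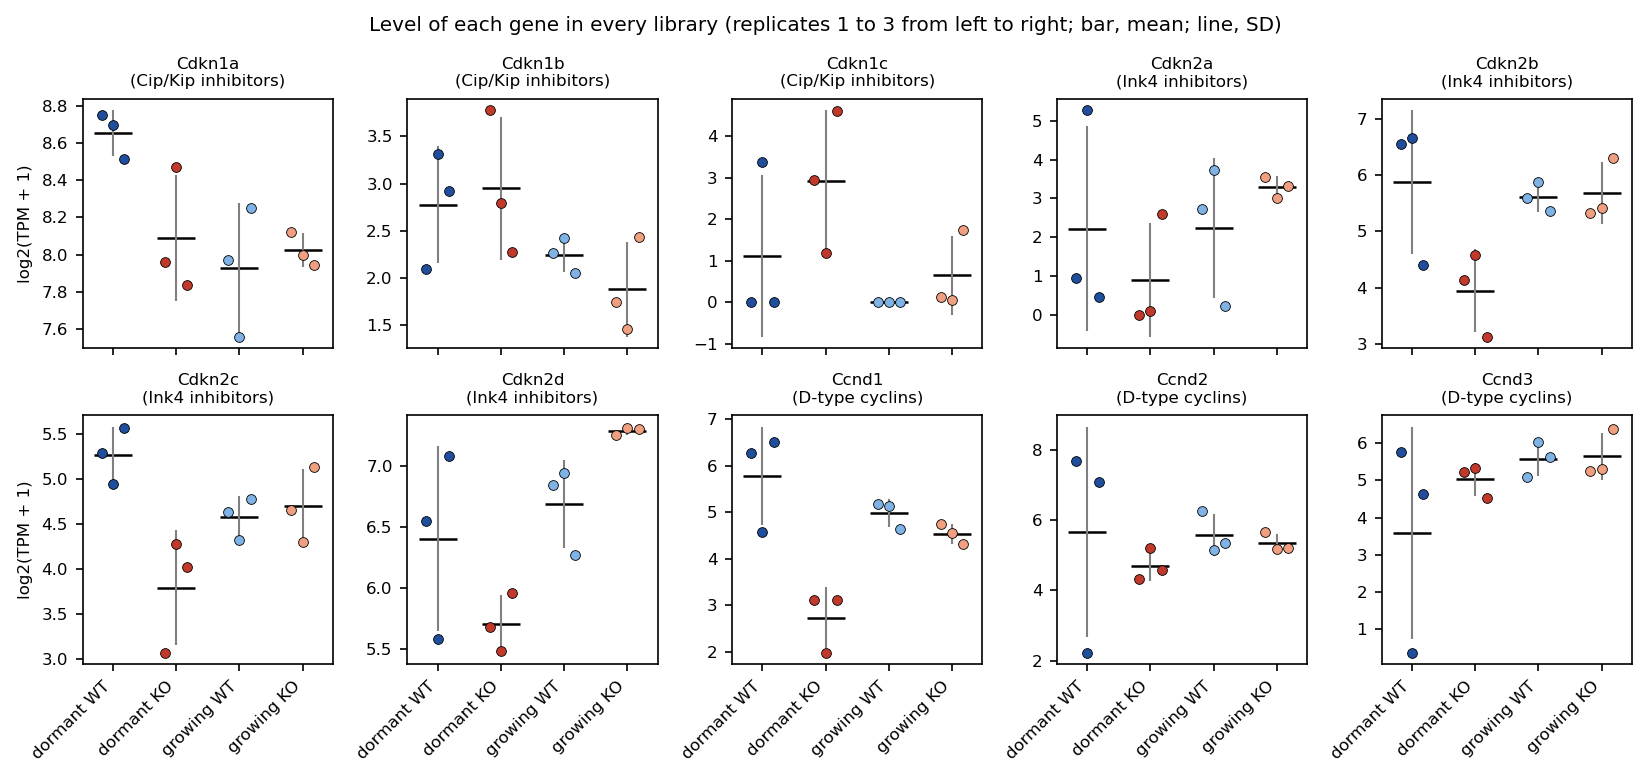
Level of each of the 10 genes, as log2(TPM + 1) on axes that differ between panels, in the 3 libraries of each group, with the group mean as a bar and the SD as a line. In the Ccnd1 panel all 3 dormant KO libraries, at 2.92 to 7.66 TPM, lie below the other 9, whereas in the Ccnd2 and Ccnd3 panels 1 dormant WT library sits far below the others of its group.

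Ccnd1, a cyclin often amplified in breast carcinoma, was the gene of the set with the lowest p in dormant KO against dormant WT. In WT hosts it stood at 76.9, 22.9 and 90.2 TPM in dormant and 35.4, 34.1 and 23.8 TPM in growing cells. In KO hosts it stood at 7.62, 2.92 and 7.66 TPM in dormant and 25.7, 22.5 and 18.9 TPM in growing cells. The 3 dormant KO libraries were thus lower than the other 9, and the remaining groups overlapped. The mean was 63.3 ± 35.6 TPM in dormant WT and 6.07 ± 2.73 in dormant KO (SD, n = 3), and the fitted difference was -3.06 (SE 0.56, adjusted p = 0.0019). Against growing KO (22.4 ± 3.4 TPM) the difference was -1.81 (SE 0.56, adjusted p = 0.0425). In order of mean log2 level the groups ran dormant WT, growing WT, growing KO and dormant KO, and the differences between the first 3 neighbors were not called (0.81, adjusted p = 0.414, and -0.45, adjusted p = 1.0). The call against dormant WT was kept without each of the 12 libraries in turn (adjusted p 0.000193 to 0.00793) and in the 9 other settings. That against growing KO was kept in 3 of the 12 omissions and 4 of the 9 settings, with an adjusted p of up to 0.150. The interaction, which sets the step from growing to dormant cells in KO hosts against the same step in WT hosts, was -2.61 (SE 0.79, adjusted p = 0.0589) and was not called.

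Cyclin D2, encoded by Ccnd2, turned on a single library. The WT hosts gave 204, 3.66 and 136 TPM in dormant and 76.3, 34.5 and 39.6 TPM in growing cells, and the KO hosts 19.2, 35.9 and 23.0 TPM in dormant and 49.2, 35.4 and 35.7 TPM in growing cells. Dormant WT replicates 1 and 3 held the highest values of the 12 and replicate 2 the lowest. With all libraries the difference between dormant KO and dormant WT was -0.96 (SE 1.10, adjusted p = 0.587), and without dormant WT replicate 2 it was -2.68 (adjusted p = 0.000975). Likewise dormant WT against growing WT gave 0.08 (adjusted p = 1.0) with and 1.80 (adjusted p = 0.0221) without that library.

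Ccnd3, which encodes cyclin D3, did not change in level beyond the spread in any comparison. In WT hosts it was at 53.7, 0.29 and 23.9 TPM in dormant and 33.2, 64.1 and 48.7 TPM in growing cells. In KO hosts it was at 36.3, 39.6 and 22.1 TPM in dormant and 37.0, 38.4 and 82.0 TPM in growing cells. The groups overlapped throughout, and the interval of the difference between dormant KO and dormant WT ran from -0.91 to 3.78. Its size rested on dormant WT replicate 2, since it was 1.44 with and -0.18 (adjusted p = 0.839) without that library, and dormant WT against growing WT was -1.99 with and -0.38 without it. Ccnd3 overlaps Bysl, a protein-coding gene on the other strand, so its level is uncertain.

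The share of each D-type cyclin in the summed TPM of the 3 does not depend on how a library is scaled. Ccnd1 made up 23.0, 85.3 and 36.1% of D-type cyclin transcripts in dormant WT and 12.1, 3.73 and 14.5% in dormant KO, and 21.3 to 25.7% and 13.8 to 23.4% in growing WT and growing KO. Ccnd3 made up 16.1, 1.08 and 9.58% in dormant WT and 57.6, 50.5 and 41.8% in dormant KO, and 22.9 to 48.3% and 33.0 to 60.02% in growing WT and growing KO. In dormant cells the leading D-type cyclin transcript was thus Ccnd1 or Ccnd2 in each WT library and Ccnd2 or Ccnd3 in each KO library, and the shares of Ccnd1 and of Ccnd3 did not overlap between the hosts. The mean share of Ccnd3 was 8.91 ± 7.51% in dormant WT and 49.96 ± 7.88% in dormant KO (SD, n = 3). With each library left out in turn, the dormant WT mean ran from 5.33 to 12.8% for Ccnd3 and from 29.5 to 60.7% for Ccnd1. The uncertainty of the Ccnd3 level from Bysl holds for its share too. These shares are given with no test, and 3 libraries against 3 could not show a two-sided permutation p below 0.10.

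**Figure D2:**
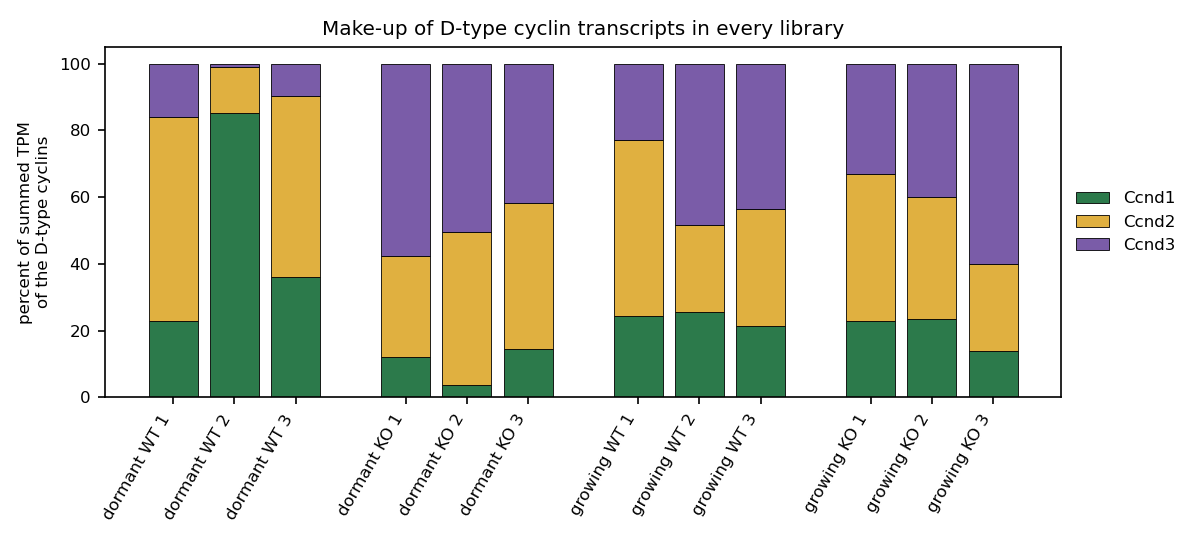
Percent of the summed TPM of Ccnd1, Ccnd2 and Ccnd3 contributed by each, as stacked bars for the 12 libraries. Ccnd3 takes 41.8 to 57.6% in the dormant KO libraries and 1.08 to 16.1% in the dormant WT libraries.

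The 4 Ink4 genes were each fitted lower in dormant KO than in the other groups, and the difference was called for Cdkn2b and Cdkn2c against dormant WT and for Cdkn2d against growing KO. Cdkn2b encodes p15, an inhibitor known to be induced by transforming growth factor beta in epithelial cells. The WT hosts gave 93.1, 100.3 and 20.2 TPM in dormant and 47.2, 57.8 and 39.96 TPM in growing cells, and the KO hosts 16.6, 22.8 and 7.75 TPM in dormant and 38.9, 41.6 and 78.2 TPM in growing cells. Dormant KO overlapped dormant WT through dormant WT replicate 3 and lay below both growing groups. The difference from dormant WT was -1.93 (SE 0.62, adjusted p = 0.0413), a call that was kept in only 2 of the 12 omissions of a library (adjusted p up to 0.149) and 4 of the 9 other settings. Against growing KO it was -1.73 (SE 0.62, adjusted p = 0.0745) and was not called, but it was called with array weights (adjusted p = 0.00799), in a fit to only the groups compared (0.0372), without dormant WT replicate 2 (0.0463) and without dormant WT replicate 3 (0.0136).

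Cdkn2c, which encodes p18, was in WT hosts at 38.1, 29.7 and 46.6 TPM in dormant and 23.7, 18.9 and 26.4 TPM in growing cells. In KO hosts it was at 7.35, 18.4 and 15.2 TPM in dormant and 24.3, 18.7 and 34.1 TPM in growing cells. Every dormant WT library lay above every growing WT and every dormant KO library, and every dormant KO library below every growing library, the closest being 18.4 against 18.7. Over all tested genes, 7.22% were higher without overlap in dormant WT than growing WT, 13.0% lower in dormant KO than dormant WT and 28.3% lower in dormant KO than growing KO, and of the 10 genes these were 2 (Cdkn1a and Cdkn2c), 3 (Ccnd1, Cdkn1a and Cdkn2c) and 5 (Ccnd1 and the 4 Ink4 genes). The difference between dormant KO and dormant WT was -1.48 (SE 0.44, adjusted p = 0.0306), kept in 10 of the 12 omissions (lost without dormant WT replicate 3, 0.0582, and without dormant KO replicate 1, 0.108) and in 5 of the 9 other settings. The dormant against growing difference was 0.69 in WT hosts (adjusted p = 0.377) and -0.91 in KO hosts (adjusted p = 0.190), and neither these nor their difference (-1.60, adjusted p = 0.141) was called. Over the settings tried the difference in KO hosts ran from -0.99 to -0.35.

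Cdkn2d, which encodes the p19 of the Ink4 family and is distinct from p19Arf, was the most abundant Ink4 transcript except in dormant WT replicates 1 and 2, where Cdkn2b was above it. In WT hosts it was at 92.6, 46.9 and 134 TPM in dormant and 114, 122 and 76.2 TPM in growing cells, and in KO hosts at 50.3, 43.5 and 61.0 TPM in dormant and 152, 158 and 157 TPM in growing cells. The growing KO libraries held the highest values and had the smallest spread (155.7 ± 3.6 TPM), and dormant KO lay below both growing groups. The difference between dormant KO and growing KO was -1.59 (SE 0.37, adjusted p = 0.0103). It was called in all 12 omissions (adjusted p 0.0011 to 0.0374) but not under median-ratio scaling (-1.001, adjusted p = 0.0848) or quantile normalization (-1.11, adjusted p = 0.0858). Against dormant WT it was -0.70 (SE 0.37, adjusted p = 0.206), ran from -0.78 to -0.19 over the settings tried and was called without dormant WT replicate 2 (-1.11, adjusted p = 0.0136). All growing KO libraries were also above all growing WT libraries, with a difference of 0.60 (adjusted p = 0.940). Of all tested genes 13.3% were higher without overlap in that comparison.

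Cdkn2a was low and uneven. The WT hosts gave 0.92, 37.6 and 0.36 TPM in dormant and 5.65, 12.2 and 0.17 TPM in growing cells, and the KO hosts 0, 0.07 and 5.02 TPM in dormant and 10.8, 7.06 and 8.93 TPM in growing cells. Growing KO was the sole group with each library above 1 TPM, and it lay above all dormant KO libraries. No comparison of Cdkn2a was called, and the interval of the difference between dormant KO and growing KO ran from -5.21 to 0.42.

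The 4 Ink4 genes summed to 225, 214 and 201 TPM in dormant WT and to 74.2, 84.8 and 88.9 in dormant KO. In growing WT the sum was 191, 211 and 143 TPM and in growing KO 225, 225 and 279. The dormant KO libraries were the 3 lowest, and their mean of 82.6 ± 7.57 TPM compares with 214 ± 11.7 in dormant WT (SD, n = 3), although Cdkn2b and Cdkn2d each varied widely among the dormant WT libraries. After median-ratio scaling the sums were 96.6 to 113 in dormant KO and 115 to 225 in the other groups, so that the order was kept with a narrow gap. The sum of the D-type cyclins was 335, 26.8 and 250 TPM in dormant WT and 63.1, 78.4 and 52.8 in dormant KO, which overlapped. In growing WT and growing KO it was 112 to 145 and 96.4 to 137 TPM. The sums of both opposing families were therefore lower in dormant KO than in growing KO in TPM, with no overlap, but after median-ratio scaling the D-type cyclin sums of dormant KO (66.8 to 89.4) and growing KO (76.8 to 110) overlapped.

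**Figure D3:**
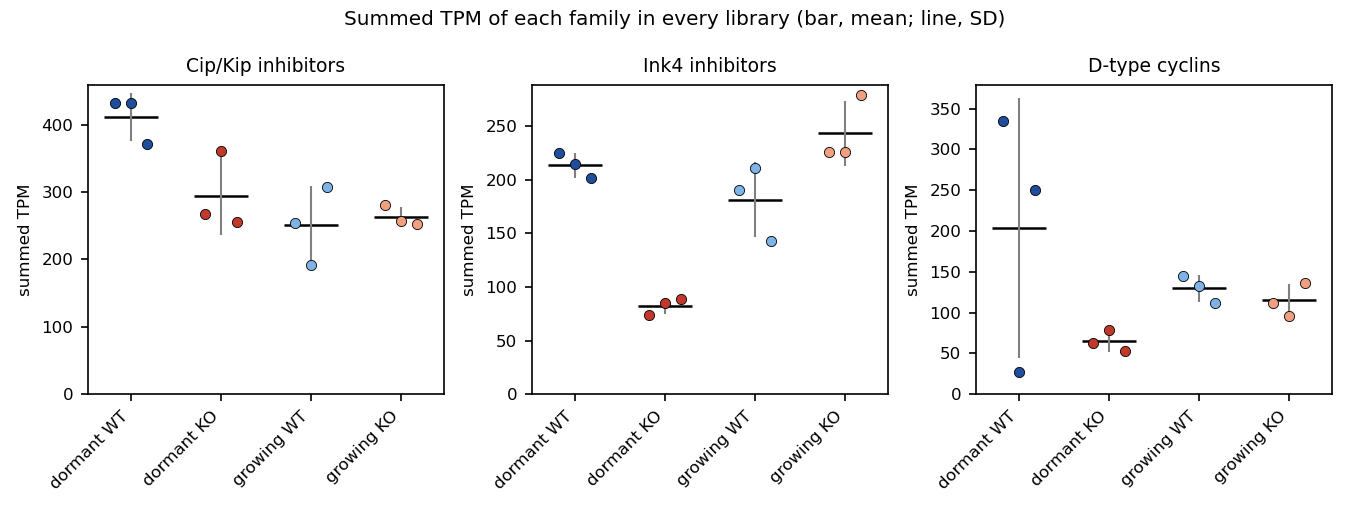
Summed TPM of the 3 Cip/Kip inhibitors, the 4 Ink4 inhibitors and the 3 D-type cyclins in the 3 libraries of each group, with mean and SD. The Ink4 sums of the dormant KO libraries, 74.2 to 88.9, lie below the other 9, while the Cip/Kip sums are highest in dormant WT.

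Cdkn1a, which encodes p21, was the most abundant of the 10 genes in every library. In dormant WT it was at 429, 413 and 364 TPM, above 96.8% of the tested genes by group mean, and in dormant KO at 248, 354 and 228. In growing WT it was at 249.9, 188 and 304 TPM and in growing KO at 278, 255 and 246. All dormant WT libraries were above all 9 others, and the remaining groups overlapped. The difference between dormant WT and growing WT was 0.72 (SE 0.22, interval 0.24 to 1.21, adjusted p = 0.0663), and between dormant KO and dormant WT -0.56 (SE 0.22, adjusted p = 0.0896), and neither was called. The latter was -0.04 (adjusted p = 0.915) after median-ratio scaling. Between dormant WT and growing WT, 0 of the 10 genes were lower without overlap, as 19.4% of all tested genes were. In KO hosts dormant and growing cells differed by 0.07 (interval -0.42 to 0.55), and after median-ratio scaling by 0.66 (adjusted p = 0.0571).

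Cdkn1b, which encodes p27, a marker of the quiescent state, was low and differed in no comparison beyond the spread. The WT hosts gave 3.26, 8.93 and 6.55 TPM in dormant and 3.79, 4.36 and 3.13 TPM in growing cells, and the KO hosts 12.7, 5.91 and 3.84 TPM in dormant and 2.34, 1.74 and 4.41 TPM in growing cells. Most dormant libraries were above the growing ones, but the groups overlapped in both hosts. The dormant against growing difference was 0.53 in WT hosts (interval -0.73 to 1.79, adjusted p = 0.627) and 1.07 in KO hosts (interval -0.19 to 2.33, adjusted p = 0.236). Its mean of 7.49 ± 4.65 TPM in dormant KO was above that of 55.3% of the tested genes.

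Cdkn1c encodes p57 and lies in an imprinted region. In WT hosts it was at 0, 9.44 and 0 TPM in dormant cells and at 0 in all 3 growing libraries, and in KO hosts at 6.78, 1.28 and 23.5 TPM in dormant and 0.10, 0.05 and 2.34 TPM in growing cells. Dormant KO was the one group with every library above 1 TPM, and the single high dormant WT value came from replicate 2. Outside dormant KO only that library and growing KO replicate 3 reached 1 TPM, so the gene was tested only because of dormant KO. Calls of Cdkn1c as higher in dormant KO are therefore no independent support. Against growing KO the difference was 2.27 (SE 1.004, unadjusted p = 0.0442, adjusted p = 0.149), which was not called, but it was called with array weights (2.43, adjusted p = 0.0263) and without dormant WT replicate 2 (adjusted p = 0.04996). Without dormant WT replicate 2 the difference between dormant KO and dormant WT, then all at 0, rose from 1.79 (adjusted p = 0.234) to 2.92 (adjusted p = 0.0257). Since dormant WT is listed at 0 in the libraries left and growing WT in every library, no fold is given.

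Cdkn1a contributed 93.3 ± 4.39% of the summed Cip/Kip TPM in dormant KO and 97.7 ± 1.80 to 98.6 ± 1.09% in the other groups (SD, n = 3). The Cip/Kip sum was therefore close to the level of Cdkn1a, at 412 ± 35.2 TPM in dormant WT, 295 ± 57.9 in dormant KO, 251 ± 57.6 in growing WT and 263 ± 15.0 in growing KO. After median-ratio scaling the sums of dormant WT (320.0 to 406) and dormant KO (323 to 412) overlapped, and both lay above those of growing WT (155 to 248) and growing KO (204 to 237).

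**Figure D4:**
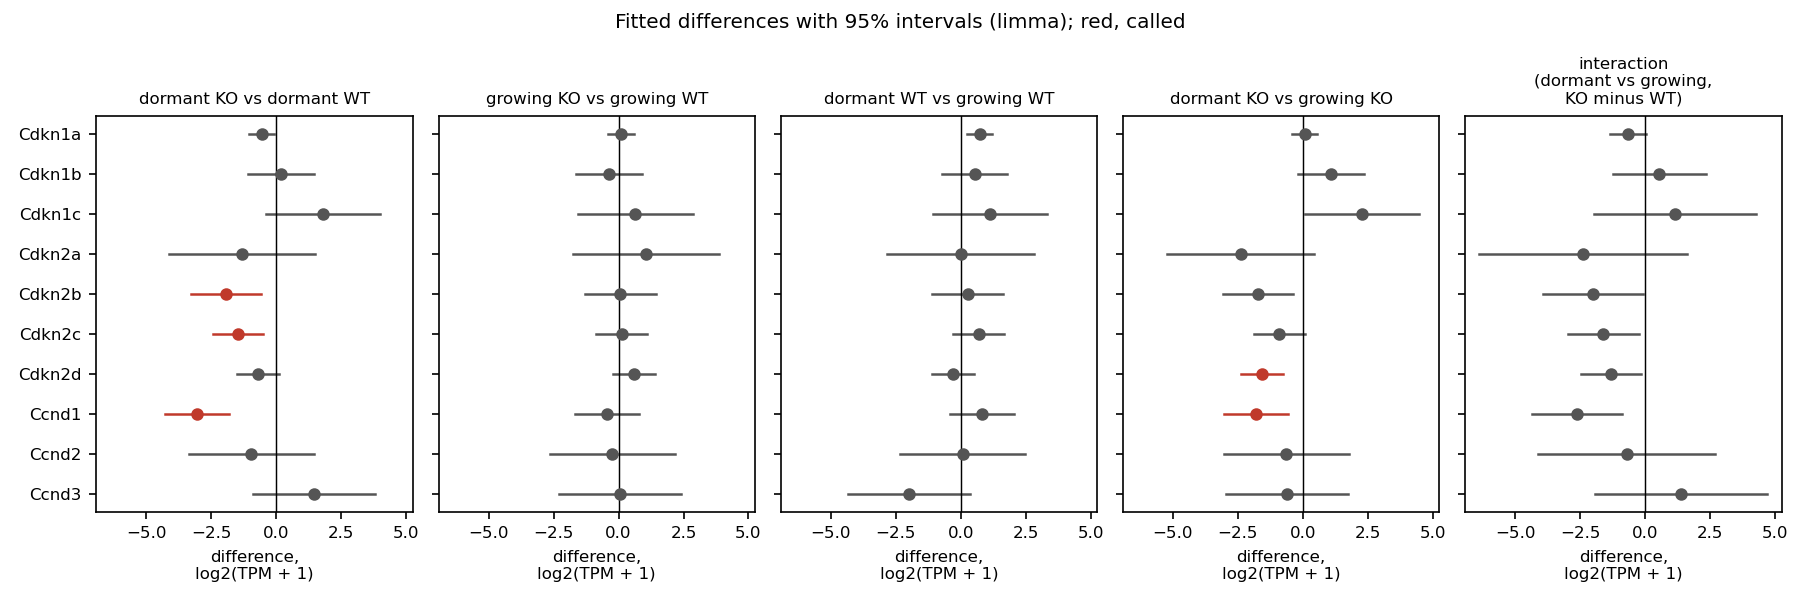
Fitted difference of each gene with its 95% interval, on the log2(TPM + 1) scale, for the 4 comparisons and the interaction, with called differences in red. The 5 called differences all lie below 0 and all involve dormant KO, from -3.06 for Ccnd1 against dormant WT to -1.48 for Cdkn2c.

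In growing cells the host made no difference that passed the test for any of the 10 genes. That test shared its spread with the dormant libraries. In a fit to only the growing groups, 2450 of the 13002 tested genes had an unadjusted p under 0.05, against 979 in the main fit. None of the 10 genes was called there either. The fitted differences between growing KO and growing WT ran from -0.45 for Ccnd1 to 1.07 for Cdkn2a, and the interval was narrowest for Cdkn1a (-0.39 to 0.58). Of the 10 genes 2 (Cdkn1c and Cdkn2d) were higher in all growing KO than in all growing WT libraries, as were 13.3% of all tested genes. Across both hosts, the interaction called 0 of the 10 genes with limma while 10.1% of all genes were called (3.91% lower, 6.18% higher), and 4 (Ccnd1, Cdkn2b, Cdkn2c and Cdkn2d) had an unadjusted p under 0.05, where 23.3% of all genes did. These 4 were all fitted below 0, from -1.30 for Cdkn2d to -2.61 for Ccnd1.

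The genes on which these regulators act, and those that act on them, were taken as 7 lists of 80 genes, of which 73 were tested. Their calls are those of the main fit and were not followed through the other settings. Of the 73, 0 were called higher and 17 lower in dormant KO against growing KO (23.3%, beside 17.8% of all genes). In dormant WT against growing WT 2 were called higher and 9 lower (15.1%, beside 7.51%), and in dormant KO against dormant WT 1 was called higher and 9 lower (13.7%, beside 22.3%). In the interaction 2 were called higher, Trp53 and Rnf123, of a ligase for p27, and 5 lower, Cdk6, Gsk3b, Plk2 (-4.03), Fosl1 (-2.61) and Top2a (-2.14), which is 9.59% beside 10.1% of all genes. In WT hosts Rnf123 was listed at 0.89, 0 and 0 TPM in dormant and 2.36 to 5.26 TPM in growing cells, and in KO hosts at 0, 2.49 and 6.68 TPM in dormant and 0.08, 0 and 0 TPM in growing cells. A TPM file holds no counts to show whether an exact 0 is low expression or a failed estimate. In the first 3 comparisons, in the order given, 3 of the 17, 6 of the 11 and 1 of the 10 called genes had a library listed at 0 in a group compared. For those genes the levels are given as listed. None was called by limma in growing KO against growing WT, where 3 had an unadjusted p under 0.05.

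The kinases that D-type cyclins activate are Cdk4 and Cdk6. In WT hosts Cdk4 was at 103, 269 and 124 TPM in dormant and 359, 315 and 316 TPM in growing cells, and in KO hosts at 66.7, 101 and 96.8 TPM in dormant and 385, 309 and 299.7 TPM in growing cells. Every dormant library was below every growing library, and Cdk4 fell in dormant KO against growing KO (-1.91, adjusted p = 0.0016) while the difference in WT hosts was -1.12 (adjusted p = 0.0572). In WT hosts Cdk6 was at 84.9, 40.7 and 45.2 TPM in dormant and 14.2, 17.5 and 14.9 TPM in growing cells, and in KO hosts at 5.44, 6.32 and 5.56 TPM in dormant and 8.19, 8.26 and 18.3 TPM in growing cells. It rose in dormant WT against growing WT (1.74, adjusted p = 0.0424) and fell in dormant KO against dormant WT (-3.02, adjusted p = 0.000642), and its interaction was called (-2.54, adjusted p = 0.031). Of the 9 CDKs and their activators, 3 fell in dormant KO against growing KO, with Cdk1, the mitotic kinase (-3.13), and Cdc37, a chaperone partner for kinases (-2.71), beside Cdk4, and the median of the list was -1.62 where that of all genes was -0.32. Cdk1 also fell in dormant KO against dormant WT (-2.04, adjusted p = 0.0121).

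Of the 5 E, A and B cyclins, which serve later phases of the cycle, 3 were called lower in dormant KO against growing KO, namely Ccne1 (-3.66), Ccnb2 (-2.65) and Ccne2, the last listed at 0, 0.02 and 0 TPM in dormant KO, beside 11.9 to 15.8 in growing KO. The median of the list was -2.65. In WT hosts the median was -2.57, with 4 of 5 at an unadjusted p under 0.05 and 0 called by limma, and dormant WT replicate 3, with Ccne1 at 30.6 TPM and Ccne2 at 21.3 TPM, was above every growing WT library for both. Of the 12 proliferation targets of E2F 5 were called lower in dormant KO against growing KO, among them Mcm6 (-4.20), Rrm2 (-4.12) and Mcm3 (-2.27), which serve DNA replication or nucleotide supply, and 2 in dormant WT against growing WT, Rrm2 (-2.35) and Cdc6. The replication gene Cdc6, called in both, was listed at 0, 0 and 0.01 TPM in dormant WT, 0, 5.71 and 0 TPM in dormant KO, beside 4.42 to 24.2 in the growing libraries. The medians were -2.40 in both hosts. Top2a, a topoisomerase of dividing cells, fell in dormant KO against dormant WT (-1.82, adjusted p = 0.0081). Mki67, the gene of the proliferation antigen Ki-67, was not called. In WT hosts it was at 0.17, 0 and 29.9 TPM in dormant and 5.41, 3.84 and 6.12 TPM in growing cells, and in KO hosts at 3.44, 2.56 and 1.22 TPM in dormant and 4.73, 7.56 and 5.3 TPM in growing cells.

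Of the 11 tested pocket proteins, E2F and DP genes, Tfdp1, a partner of E2F, fell in dormant KO against growing KO (-1.84). E2f4 and Rbl1, members of the repressor complex of quiescent cells, were called in dormant WT against growing WT with listed zeros. The dormant WT libraries listed E2f4 at 0, 0 and 1.92 TPM, beside 11.4 to 25.8 in growing WT, and Rbl1 at 0, 0.05 and 2.71 TPM, beside 5.54 to 7.83. Rb1, the main substrate of CDK4 and CDK6, was at 0.06 to 4.66 TPM in 11 libraries and at 74.1 TPM in dormant WT replicate 2, and was not called. Among 9 tested genes for the turnover of inhibitors and D-type cyclins, Cks1b, a cofactor in the degradation of p27, was at 531 to 727 TPM in dormant WT, 353 to 411 in dormant KO, 1471 to 1611 in growing WT and 1652 to 1744 in growing KO. It fell in dormant cells of both hosts (-1.32 in WT, adjusted p = 7.9e-05, and -2.16 in KO, adjusted p = 8.03e-07). Skp2, the ubiquitin ligase subunit it works with, had differences of -2.68 and -2.01 that were not called (adjusted p = 0.0840 and 0.143), with 3 of the 6 dormant libraries listed at 0. Gsk3b, a kinase that marks cyclin D1 for degradation, had 104, 137 and 122 TPM in dormant cells of WT hosts and 14.8, 21.5 and 18.6 TPM in those of KO hosts. It rose in dormant WT against growing WT (1.31, adjusted p = 0.0250) and fell in dormant KO against dormant WT (-2.67, adjusted p = 9.68e-05), and its interaction was called (-1.75, adjusted p = 0.0270). Fbxo31, which also targets cyclin D1, was listed at 0.05, 0 and 0 TPM in dormant WT, beside 4.16 to 8.28 in growing WT.

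**Figure D5:**
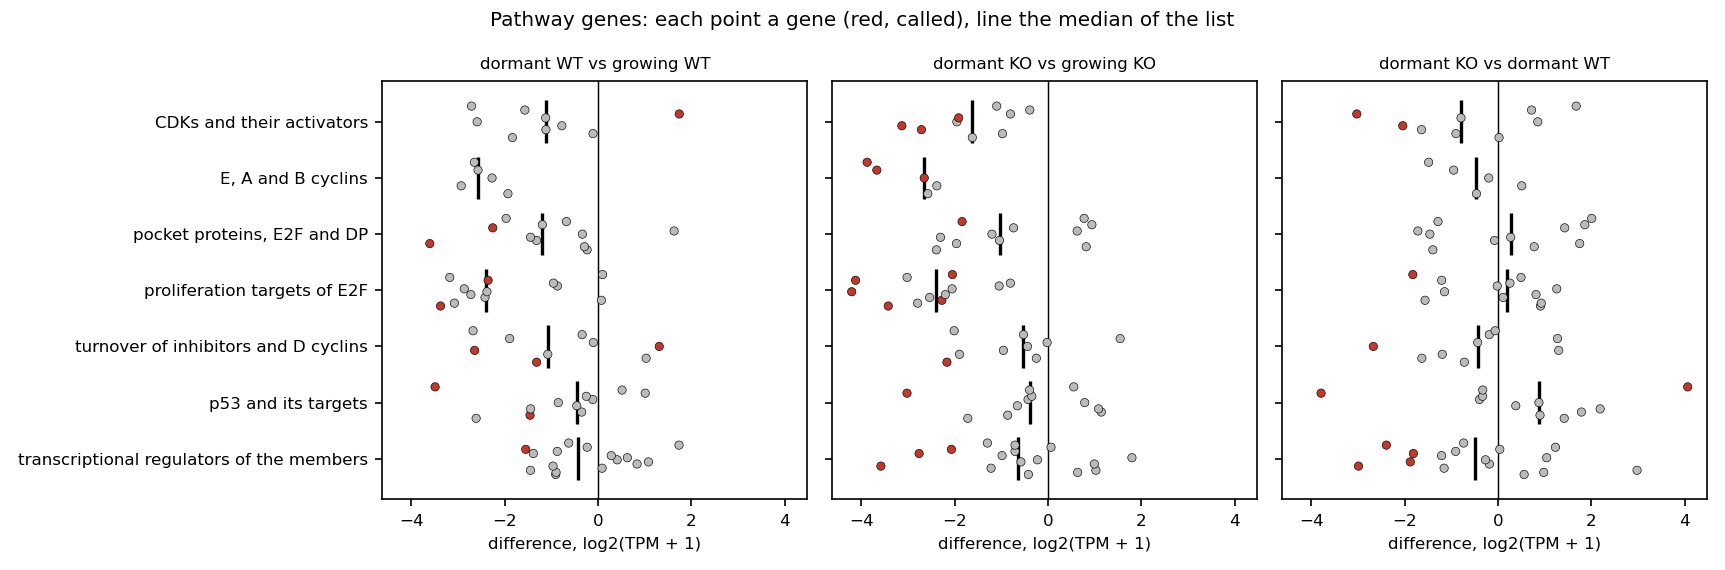
Fitted differences of the tested genes of the 7 pathway lists, each point a gene and each line the median of its list, for dormant against growing cells in WT and in KO hosts and for dormant KO against dormant WT, with called genes in red. The cyclins of later phases and the E2F targets have medians near -2.5 in both hosts, from -2.40 to -2.65.

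Of the 11 tested genes for p53 and its targets, 2 were called in dormant KO against dormant WT. Trp53, which encodes p53, was in WT hosts listed at 0 in all 3 dormant libraries and at 4.5, 28.3 and 7.77 TPM in growing cells, and in KO hosts at 19.6, 18.03 and 10.9 TPM in dormant and 5.48, 12.3 and 16.2 TPM in growing cells. It was called in both comparisons with dormant WT. The dormant WT libraries had 3180 to 4710 of the 13002 tested genes at 0, and Trp53 is given there only as listed. Plk2, a kinase whose gene is induced by p53, had 301, 264 and 427 TPM in dormant cells of WT hosts and 16.2, 30.04 and 23.4 TPM in those of KO hosts, a difference of -3.79 (adjusted p = 4.88e-06). It also fell against growing KO (-3.02), and Bax, a promoter of cell death, fell in dormant WT against growing WT (-1.46).

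Of the 16 tested transcriptional regulators of the set, 4 fell in dormant KO against dormant WT, namely Fosl1 (-2.98), Stat3 (-2.39), Foxo3 (-1.88) and Myc (-1.81). Fosl1 is an AP-1 subunit and Myc a repressor of Cdkn1a and Cdkn2b. In dormant cells Fosl1 had 123, 62.8 and 84.8 TPM in WT hosts and 14.3, 15.5 and 4.43 TPM in KO hosts, beside 129 to 187 TPM in the growing libraries. Myc had 299, 72.1 and 232 TPM in dormant cells of WT hosts and 36.7, 50.3 and 60.2 TPM in those of KO hosts, beside 310 to 495 TPM in the growing libraries. Both also fell in dormant KO against growing KO (-3.58 and -2.76). Smad3, which transmits signals of transforming growth factor beta, was called lower in dormant than growing cells of both hosts, and was listed at 0.02, 0.24 and 0 TPM in dormant WT, 0.01, 0 and 0.36 TPM in dormant KO and 1.35 to 4.38 TPM in the growing libraries.

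The genes with the pattern most like each member over the 12 libraries were ranked by Pearson's r of log2(TPM + 1), as a description, since these points share libraries and groups. For Ccnd1 they were Ank (0.957), Snd1 (0.957) and Arhgap23 (0.947). For Ccnd2 they were Snhg6 (0.950), Casc4 (0.941) and Smg5 (0.935), and for Ccnd3, Slc48a1 (0.982), Tango2 (0.975) and Nfkbib (0.972). For the Ink4 genes the closest were Ywhaq (0.930) for Cdkn2b, Atf3 (0.925) for Cdkn2c, Prkcsh (0.977) for Cdkn2d and Igf2bp2 (0.864) for Cdkn2a among genes with an established symbol. For Cdkn1a they were Arl5b (0.918), Tax1bp1 (0.914) and Sparc (0.898), and for Cdkn1b Rock2 (0.885). For Cdkn1c the closest of all tested genes was Slc22a18 (0.944), which lies 12685 bases from it (chr7:143473736-143499334, plus strand). Among the 10 genes themselves the highest r was that of Ccnd1 with Cdkn2c (0.714), and Cdkn2a and Cdkn2b, although neighbors, had an r of 0.470.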

How the data were processed

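RNA of sorted D2A1 cells (50 per aliquot) was sequenced by the authors. Library preparation is given as Smart-seq2 in their methods and as TruSeq mRNA in the labels. Per the submitters' processing notes, reads were processed with bcl2fastq 2.20, cutadapt 1.18, STAR 2.5.2b and RSEM 1.3.3 on build mm10. The deposited values are TPM, which the authors estimated with RSEM. TPM keeps no depth, so no counting interval was computed, and the authors' DESeq2 model, which needs counts, was not repeated. Groups and replicate numbers came from the labels, and 30 further per-sample columns that matched no labelled sample were not used.

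The deposited TPM values were transformed to log2(TPM + 1) with no further scaling. The 13002 genes with at least 1 TPM in at least 3 libraries, of 25916 above 0, were fitted with limma 3.58.1 (R 4.3.3, eBayes with trend) over all 12 libraries with 1 mean per group, two-sided, with Benjamini-Hochberg adjustment over all genes tested. A gene was called at an adjusted p of at most 0.05 and a difference of at least 1. At low TPM the pseudocount of 1 shrinks a difference. Intervals are 95% intervals of that fit. The script was tested on simulated data. Alternatives were other pseudocounts, filters, scalings, weights, a replicate block, other thresholds and the omission of each library. Family sums and shares were computed with Python 3.11.15 and carry no test.

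The 10 genes, the lists and the tests were chosen with earlier results of these data known. Genes of the lists were named where called, at most 4 per list and comparison by size, with Mki67, Cdk4, Cdk6, Rb1, Skp2 and Trp53 always named, the leading gene of a marker list where used, and the genes most like each member. Spp1 was named after its values were seen. Coordinates are from GENCODE M21 on GRCm38, the assembly of mm10, whereas the table was made with an earlier GENCODE release, and the identifier versions agreed for 8 of the 10 genes (not Cdkn1a and Cdkn2b).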

Additional observations from a re-analysis of the deposited data

Results flagged for a closer look

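Cdkn2c, the gene of p18, was marked because its dormant against growing difference took opposite directions in the hosts. Every dormant WT library (29.7 to 46.6 TPM) lay above every growing WT library (18.9 to 26.4), and every dormant KO library (7.35 to 18.4) below every growing KO library (18.7 to 34.1), with a gap of 18.4 to 18.7 TPM in the latter. Of all tested genes 7.22% were higher without overlap in the former comparison and 28.3% lower in the latter. These ranges are TPM with no further scaling. Over the settings tried, the dormant against growing difference ran from -0.99 to -0.35 in KO hosts and from 0.50 to 0.77 in WT hosts. The interaction was -1.60 on the log2(TPM + 1) scale (limma, interval -2.98 to -0.23, adjusted p = 0.141) and was not called, and it was not called in the other 8 settings or without any of the 12 libraries.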

How the results depend on the processing

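In dormant KO against dormant WT, 1 gene (Ccnd1) rather than 3 was called under median-ratio scaling, quantile normalization, array weights, a fit to only the groups compared and an adjusted p of at most 0.01, 2 (Ccnd1, Cdkn2c) with no filter, and 1 to 5 were called when each library was left out, the 5 without dormant WT replicate 2 (Ccnd1, Ccnd2, Cdkn1c, Cdkn2c, Cdkn2d). In dormant KO against growing KO, 1 rather than 2 was called with a pseudocount of 5 and with no filter, 0 under median-ratio scaling, quantile normalization and an adjusted p of at most 0.01, 4 with array weights (Ccnd1, Cdkn2b, Cdkn2d and, higher, Cdkn1c), 3 (Ccnd1, Cdkn2b, Cdkn2d) in a fit to only the groups compared, and 1 to 4 without each library. In dormant WT against growing WT 0 to 1 and in the interaction 0 to 3 were called without each library, and 1 (Ccnd1) in the interaction with array weights. The 3 in the interaction were Ccnd1, Ccnd2 and Cdkn2d, without dormant WT replicate 2, and Cdkn2b was called without dormant WT replicate 3. In growing KO against growing WT 0 were called in every fit run. The cause of these shifts was not tested. Median-ratio scaling moved the median difference of all tested genes from 0.17 to 0.52 in dormant KO against dormant WT and from -0.32 to 0.09 in dormant KO against growing KO. Over the genes, comparisons and alternatives, 988 differences kept their side of the threshold, 37 lost a call, 15 gained one and 0 of the called differences changed sign.

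Libraries with the same replicate number did not deviate together (r of deviations from the group means -0.0136 to 0.0206), so the numbers were not taken as pairs. Each KO library, but not each WT library, correlated best with its own number. With the replicate block 1 rather than 2 genes were called in dormant KO against growing KO (Cdkn2d, with Ccnd1 at an adjusted p of 0.0977), and no other count moved.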
